A study of Homo sapiens with 6 samples.

Results

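Genes used as markers of tubular injury and repair in the kidney were examined in HK-2 cells exposed to OX-LDL. The 9 genes, HAVCR1, PROM1, VCAM1, SPP1, CLU, LCN2, IGFBP7, SOX9 and SOX4, were taken by symbol from the 58825 genes of the expression table, with no threshold on their values. HK-2 is a single immortalized cell line from human proximal tubule, and OX-LDL is oxidized low-density lipoprotein. Control cells were untreated, and OX-LDL cells received 25 μg/ml for 48 h, with 3 libraries in each group. The study's methods place a period of low-serum starvation before OX-LDL, and they do not say how Control cells were handled in that time. They count in vitro experiments as independent repeats but do not tie the libraries to them, so the p-values measure the spread between these libraries, which may be technical. Poly(A) RNA was read as pairs, and the libraries held 62561347 to 76797607 deposited counts. Counts at the first multiples of 4 were more common than their neighbours, so a read pair was taken to give about 4 counts. The tool that made the counts is not given in the sources used here. A library was held to detect a gene above 12 counts, or 3 pairs.

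When a proximal tubule is injured, surviving cells lose mature transporters, switch on a group of surface and secreted proteins, and divide to refill the epithelium. HAVCR1 and LCN2 are the injury proteins most often measured in urine, and SOX9 and SOX4 are transcription factors of cells that repair the tubule. VCAM1 and PROM1 mark tubular cells whose repair is incomplete.

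Of the 9 markers, CLU rose and SOX9 fell in OX-LDL cells, and the other 6 that could be tested did not pass the threshold. Levels were taken as FPKM, fragments scaled to transcript length and library size, which can be compared between genes. Differences were tested with edgeR's quasi-likelihood test on the counts of the 19510 genes that averaged 0.1 FPKM or more, and a gene was called at an adjusted p under 0.05. All markers but PROM1 reached that level. The call rate over all genes was 15.3%, with 7.91% higher and 7.42% lower in OX-LDL, against 1 higher and 1 lower of the 8 markers tested. The FPKM values of the groups did not overlap for 3 of the 8 markers, HAVCR1, CLU and SOX9, and for 37.2% of all genes tested. The unadjusted p was under 0.05 for the same 3 markers and for 30.4% of all genes. When a fold above 2 or below 0.5 with an unadjusted p under 0.05 was asked for, SOX9 was the 1 marker that passed, and 6.36% of all genes did. The median log2 fold change was 0.08 over the 8 markers tested and -0.004 over all genes. The counts thus lay close to the background of the table, and the markers moved singly and in both directions.

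In the GO terms of the table, 6 of the 9 markers were annotated to the extracellular space, a term held by 5.63% of the annotated genes tested. The levels of the markers spanned several orders of magnitude. In Control cells, SPP1 was highest, followed by HAVCR1 and IGFBP7, SOX4, CLU, LCN2 and SOX9, VCAM1, and PROM1. The ranges of HAVCR1 and IGFBP7 overlapped over the Control libraries, but HAVCR1 was above IGFBP7 within each library, in some by a narrow margin. LCN2 lay above SOX9 in some Control libraries only, so their order was not resolved there. In OX-LDL cells, the ranges of HAVCR1 and IGFBP7 still overlapped, again with HAVCR1 above within each library, whereas SOX9 had come down into the range of VCAM1. LCN2 lay above SOX9 in every OX-LDL library.

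**Figure D1:**
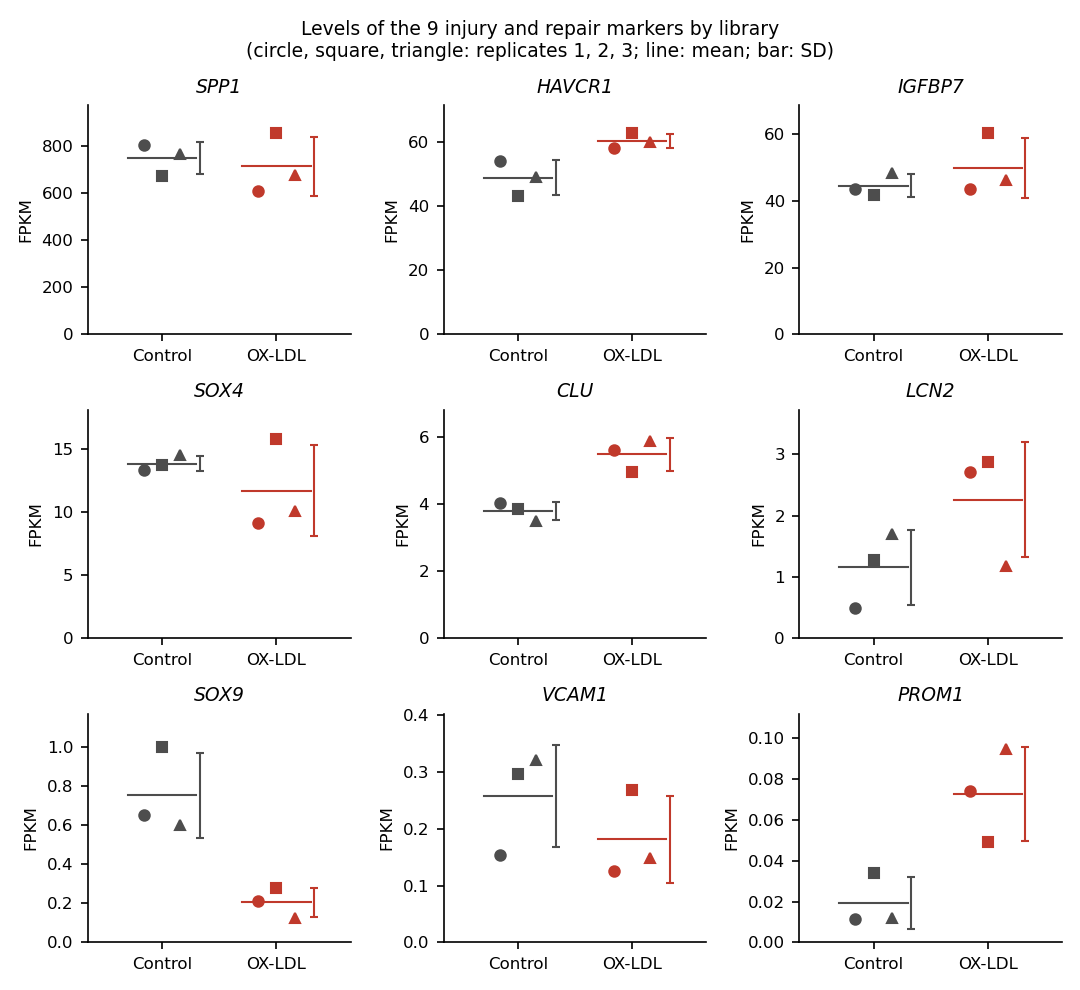
FPKM of each of the 9 markers in the 3 Control and 3 OX-LDL libraries, on a linear axis from 0 for each gene. Symbols mark replicates 1, 2 and 3, lines the group means and bars the SD. The groups are apart for HAVCR1, CLU, SOX9 and PROM1 and overlap for the other 5 genes.

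The surface proteins were HAVCR1, PROM1 and VCAM1. HAVCR1 (ENSG00000113249, GRCh38 chr5:157029413-157059119, minus strand), also named KIM-1, is a receptor for phosphatidylserine with which injured tubular cells take up dead neighbours. It was listed at 54.1, 43.1 and 49.1 FPKM in Control 1, 2 and 3 and at 58.1, 62.6 and 60.0 FPKM in OX-LDL 1, 2 and 3. Each OX-LDL library was above each Control library, by a margin that was narrow between Control 1 and OX-LDL 1. Its mean went from 48.7 ± 5.51 to 60.2 ± 2.29 FPKM (SD, n = 3), and the gene ranked 620 and 498 in the table. That is a log2 fold change of 0.34 (standard error 0.10), a fold of 1.26 with a 95% interval of 1.06 to 1.496. The test of edgeR gave an adjusted p of 0.0753, over the threshold. It came under the threshold in DESeq2, with an adjusted p of 0.0355, and in edgeR when genes under a mean of 1 FPKM were left out, with 0.0469. A larger part of all genes passed in both settings, 4430 of 19510 in DESeq2 and 3152 of 12259 at that minimum. The main fit called 2991 of 19510.

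PROM1 (ENSG00000007062, chr4:15963076-16083701, minus strand) encodes CD133, a membrane protein of progenitor cells. It was near the detection limit, at 8, 23 and 8 counts in Control 1, 2 and 3 and 42, 34 and 65 in OX-LDL 1, 2 and 3. All 3 OX-LDL libraries lay above the limit of 12 counts, as did Control 2, and the groups did not overlap. In FPKM, Control 1, 2 and 3 had 0.0115, 0.0339 and 0.0122, and OX-LDL 1, 2 and 3 had 0.0744, 0.0490 and 0.0949. When no minimum level was set and 31096 genes were fitted, it differed by 1.904 on the log2 scale (standard error 0.58), with a 95% interval of 0.55 to 3.25. Its adjusted p was 0.103 by edgeR and 0.0291 by DESeq2. The call thus differed between the tools for a gene that rested on 2 to 16.2 read pairs a library.

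VCAM1 (ENSG00000162692, chr1:100719742-100739045, plus strand) is the adhesion molecule that binds integrins holding ITGA4 on leukocytes. It had 0.155, 0.296 and 0.322 FPKM in Control 1, 2 and 3 and 0.126, 0.269 and 0.149 FPKM in OX-LDL 1, 2 and 3. The groups overlapped, and Control 1 and OX-LDL 2 stood away from the other libraries of their groups. OX-LDL over Control gave a log2 fold change of -0.46 (standard error 0.40), with a 95% interval of -1.42 to 0.49 and an adjusted p of 0.501 by edgeR. The log2 fold change was -0.85 without OX-LDL 2 and -0.26 without OX-LDL 1. At 58 to 160 counts a library, the interval holds both a fall of more than 2-fold and a small rise.

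Among the secreted proteins, CLU differed between the groups. CLU (ENSG00000120885, minus strand) encodes clusterin, a chaperone outside the cell that binds misfolded proteins. It was listed at 4.02, 3.85 and 3.51 FPKM in Control 1, 2 and 3 and at 5.60, 4.95 and 5.90 FPKM in OX-LDL 1, 2 and 3. All OX-LDL libraries were above all Control libraries, and the spread within either group was smaller than the gap between the means of 3.79 ± 0.261 and 5.48 ± 0.483 FPKM (SD, n = 3). This was a fold of 1.47 with a 95% interval of 1.25 to 1.75 (log2 fold change 0.56, standard error 0.10), and edgeR gave an adjusted p of 0.0159. The adjusted p rose to 0.0601 without Control 2, to 0.0572 without OX-LDL 1 and to 0.0612 without OX-LDL 3, at log2 fold changes of 0.50 to 0.63 over all such fits.

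SPP1 (ENSG00000118785, chr4:87975650-87983426, plus strand) encodes osteopontin, a phosphoprotein that binds integrins and CD44. It ranked 28 of all genes in both groups. Control 1, 2 and 3 had 808, 676 and 766 FPKM, and OX-LDL 1, 2 and 3 had 610, 857 and 679 FPKM. The lowest and the highest library were both OX-LDL libraries, and the groups overlapped. On the log2 scale the change was -0.04 (standard error 0.14), and the adjusted p by edgeR was 0.896. The 95% interval ran from -0.37 to 0.30, a fold of 0.773 to 1.23, so a larger change in either direction was outside it.

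LCN2 (ENSG00000148346, chr9:128149071-128153453, plus strand) encodes NGAL, which binds iron-carrying siderophores. Control 1, 2 and 3 had 0.502, 1.28 and 1.70 FPKM, and OX-LDL 1, 2 and 3 had 2.72, 2.88 and 1.18 FPKM. OX-LDL 1 and 2 exceeded every Control library, whereas OX-LDL 3 lay below Control 2 and 3. The mean went from 1.16 ± 0.609 to 2.26 ± 0.937 FPKM (SD, n = 3). Its log2 fold change of 0.99 (standard error 0.50) was larger in size than that of CLU, but its 95% interval ran from -0.20 to 2.17 and edgeR gave an adjusted p of 0.240. Leaving out 1 library moved the log2 fold change to between 0.64 (without Control 1) and 1.36 (without Control 3). Counts were 73 to 421 a library, and a fold near 2 could not be told from none at this spread.

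IGFBP7 (ENSG00000163453, chr4:57030773-57110385, minus strand) encodes a secreted binding protein measured in urine as a sign of cell cycle arrest in injured tubules. Control 1, 2 and 3 had 43.7, 41.9 and 48.3 FPKM, and OX-LDL 1, 2 and 3 had 43.5, 60.3 and 46.2 FPKM. OX-LDL 2 alone was above the Control range. By edgeR the change was 0.20 on the log2 scale (standard error 0.14, 95% interval -0.13 to 0.52, adjusted p = 0.396), and it was 0.04 without OX-LDL 2. The gene overlaps POLR2B on the other strand, which had 14587 to 19923 counts, and whether the counting used strand is not given in the sources used here.

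The transcription factors SOX9 and SOX4 are HMG-box proteins of the same family. SOX9 (ENSG00000125398, chr17:72121020-72126420, plus strand) had 0.655, 1.00 and 0.604 FPKM in Control 1, 2 and 3 and 0.213, 0.277 and 0.126 FPKM in OX-LDL 1, 2 and 3. Every OX-LDL library was below every Control library. In counts, these were 227, 353 and 195 against 62, 99 and 46. This was a fold of 0.280 with a 95% interval of 0.156 to 0.503 (log2 fold change -1.84, standard error 0.36), and edgeR gave an adjusted p of 0.0188. The antisense gene SOX9-AS1 had 0 counts in every library. The adjusted p rose to 0.0670 without Control 2, to 0.0676 without OX-LDL 1 and to 0.0541 without OX-LDL 3, and the log2 fold change stayed between -2.11 and -1.59.

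SOX4 (ENSG00000124766, chr6:21592768-21598619, plus strand) was some way above SOX9 in level. Control 1, 2 and 3 had 13.3, 13.7 and 14.6 FPKM, and OX-LDL 1, 2 and 3 had 9.19, 15.8 and 10.1 FPKM. OX-LDL 1 and 3 were below the narrow Control range, and OX-LDL 2 was above it. Over all 6 libraries a log2 fold change of -0.21 (standard error 0.20) had an adjusted p of 0.541 by edgeR. Without OX-LDL 2 it was -0.49 with an adjusted p of 0.0194, so 1 library decided this call.

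**Figure D2:**
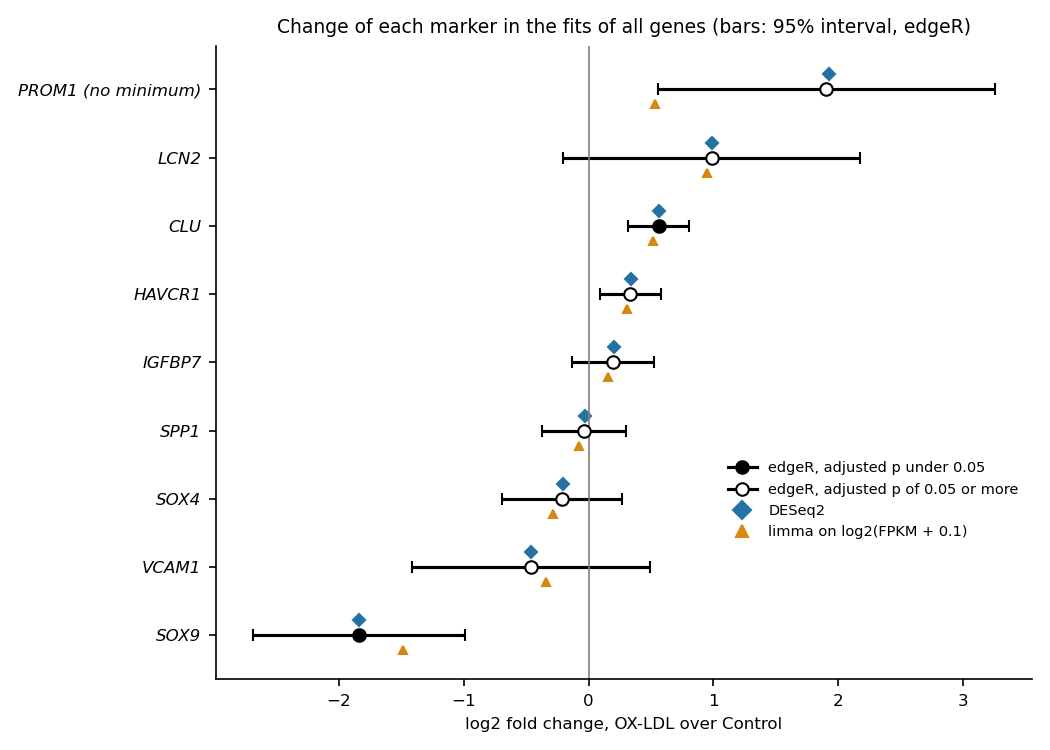
Log2 fold change of each marker, OX-LDL over Control, from edgeR with its 95% interval (circles, filled where the adjusted p was under 0.05), DESeq2 (diamonds) and limma on log2(FPKM + 0.1) (triangles). CLU at 0.56 and SOX9 at -1.84 are filled, and PROM1 is from the fit with no minimum level.

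OX-LDL 2 was the highest OX-LDL library for 7 of the 9 markers, while it was so for 36.3% of all genes tested. OX-LDL 1 was the lowest for 5 of the 9 and for 31.3% of all genes tested. On the first principal component, which held 34.8% of the variance and separated the groups, OX-LDL 2 lay nearest to Control. Its part in the results was not tested beyond the fits without it, in which CLU and SOX9 had adjusted p-values under 0.05 and SOX4 was called as well.

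**Figure D3:**
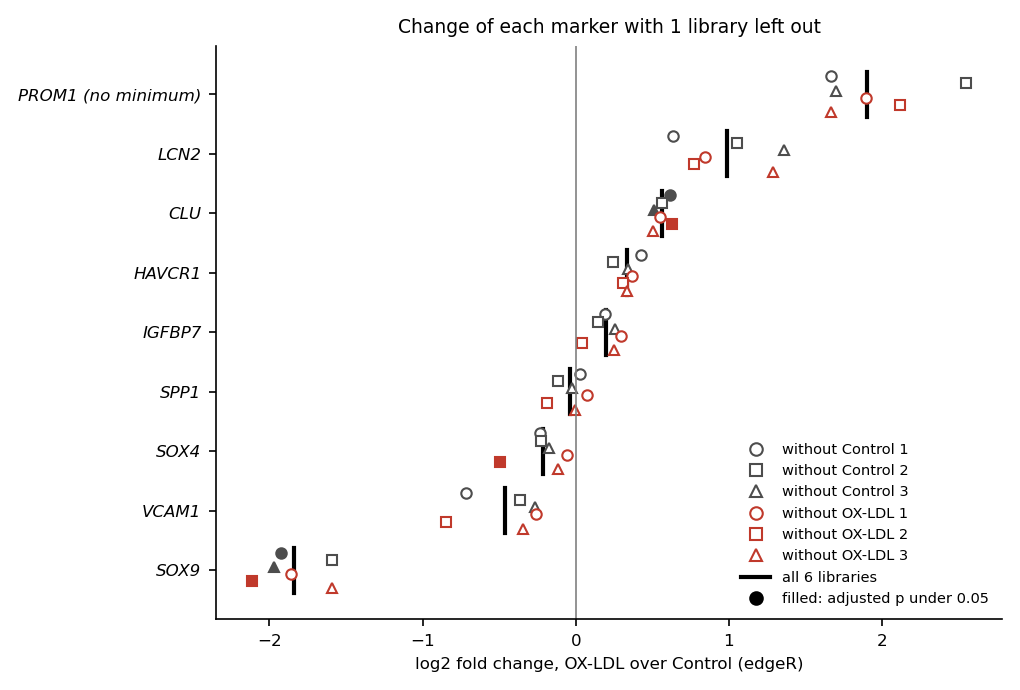
Log2 fold change of each marker in edgeR with 1 library left out at a time (symbols) and with all 6 libraries (black lines), filled where the adjusted p was under 0.05. CLU and SOX9 keep their direction in all 6 fits and are filled in 3 of them, and SPP1 lies on both sides of 0.

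Stretches upstream of HAVCR1, LCN2 and VCAM1 are shown because LCN2 and VCAM1 hold an NF-kB motif and HAVCR1 does not. Whether the motif goes with the level or the change of a gene was not tested. None of the 3 was called by edgeR at the minimum of 0.1 FPKM. They were taken from the 250 bases before the RefSeq start site on GRCh38.p14, without bases in an annotated UTR, and run 5′ to 3′ on the strand of the gene. Capitals mark the TATA box (TATAAA), the CCAAT box, the AP-1 motif (TGANTCA) and the NF-kB motif, each on either strand. The positions are chr5:157059120-157059366 (minus) for HAVCR1, chr9:128149265-128149452 (plus) for LCN2 and chr1:100719492-100719741 (plus) for VCAM1.
HAVCR1: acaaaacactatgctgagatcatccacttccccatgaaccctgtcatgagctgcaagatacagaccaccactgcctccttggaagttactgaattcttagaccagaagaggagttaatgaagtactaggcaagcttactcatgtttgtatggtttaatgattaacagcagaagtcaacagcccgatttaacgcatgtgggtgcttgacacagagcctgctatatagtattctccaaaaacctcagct
LCN2: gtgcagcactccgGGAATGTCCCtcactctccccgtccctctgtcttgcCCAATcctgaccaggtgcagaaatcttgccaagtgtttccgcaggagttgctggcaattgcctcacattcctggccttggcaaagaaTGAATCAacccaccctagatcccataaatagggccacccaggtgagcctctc
VCAM1: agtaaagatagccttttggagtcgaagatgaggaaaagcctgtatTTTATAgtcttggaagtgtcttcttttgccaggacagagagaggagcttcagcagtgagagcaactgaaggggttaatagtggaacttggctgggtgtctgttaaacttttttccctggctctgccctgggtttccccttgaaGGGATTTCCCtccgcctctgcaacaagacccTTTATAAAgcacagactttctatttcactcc

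Windows for 6 of the 9 markers were searched, those of HAVCR1, LCN2, SPP1, SOX4, VCAM1 and PROM1. LCN2 held an NF-kB match 175 bases, a CCAAT box 139 bases and an AP-1 match 52 bases before its start. VCAM1 held an NF-kB match 62 bases before its start, which reads on both strands, and a TATA box at 205, 31 and 29 bases, of which the last 2 overlap. SOX4 held 4 matches to the CCAAT box, and of the 4 windows of PROM1, 1 held a CCAAT box and another an AP-1 match. The SOX4 window and the PROM1 window with the CCAAT box lay wholly in annotated UTR. The windows of SOX4 and LCN2, and the PROM1 window with the AP-1 match, lay inside the gene coordinates given above. Neither HAVCR1 nor SPP1 held any of the 4 motifs, which says only that these letters are not in that window. Of 35116 promoter windows of 250 bases, 9.96% held the NF-kB motif, 6.57% the AP-1 motif, 10.7% the TATA box and 32.0% the CCAAT box. The matches are a description of sequence and were not tested for binding.

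NF-kB is a family of dimeric transcription factors held in the cytoplasm by inhibitors and released by inflammatory signals, and LCN2 and VCAM1 are among its known targets. Of 27 NF-kB subunits, inhibitors and targets tested, 6 were higher, 5 were lower and 16 did not pass, with a median log2 fold change of 0.21. Over all genes tested, 7.91% were higher and 7.42% lower, and the difference from these shares was not tested. IL6, a cytokine, rose from 3.33 ± 0.113 to 5.44 ± 0.282 FPKM (SD, n = 3). SAA2, an acute phase protein, rose from 0.0344 ± 0.0105 to 0.231 ± 0.0375 FPKM. Its Control mean was under the minimum of 0.1 FPKM, so it entered the test only through its OX-LDL level. By contrast, the chemokine CXCL8 fell from 51.2 ± 12.7 to 11.7 ± 1.195 FPKM and CCL2 from 4.99 ± 0.924 to 1.37 ± 0.602 FPKM. Of the other genes called, which were named after their values were seen, IRF1, NFKB1 and TNFAIP3 fell and RELA, REL, CFB and SAA1 rose. Among the subunits, RELA went from 3.80 ± 0.653 to 6.75 ± 1.75 FPKM and NFKB1 from 9.24 ± 0.564 to 7.33 ± 0.0419 FPKM. The 11 calls of the list became 7 without Control 1, 4 without Control 2 or OX-LDL 1, and 3 without OX-LDL 3. In those fits the calls over all genes fell too, from 2991 to between 1161 and 1796.

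Further genes of injured and repairing tubules were examined as a list. Of 29 tested, 11 rose, 4 fell and 14 did not pass, with a median log2 fold change of 0.42, beside a call rate of 15.3% over all genes. MMP7, a matrix protease secreted by injured tubules, rose from 1.69 ± 0.497 to 13.7 ± 0.990 FPKM, by 3.05 on the log2 scale. KRT19, a keratin of simple epithelia, rose from 5.47 ± 0.481 to 20.6 ± 4.83 FPKM. GDF15, a stress cytokine, fell from 50.9 ± 3.67 to 6.36 ± 0.585 FPKM (-2.97 on the log2 scale). CDKN1A, the cell cycle inhibitor p21, fell from 20.4 ± 2.98 to 7.41 ± 0.688 FPKM. Of the other genes called, which were named after their values were seen, ATF3 and ANXA1 fell and VIM, KRT8, IL18, PLAUR, CD24, TPM1, ANXA2, TIMP1 and LIF rose. The list was called in both directions. The FPKM values of the groups did not overlap for 23 of the 29, and for 37.2% of all genes tested. The list was chosen with earlier results of these data known, and MMP7, KRT19 and VIM are named in the paper. Its call rate and median are therefore not independent of these data. The difference in call rate between this list and the 9 markers was not tested.

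Of 16 receptors, partners and sheddases of the markers tested, 4 rose, 1 fell and 11 did not pass, and the median log2 fold change was 0.16. Of all genes tested, 7.91% rose and 7.42% fell. CD44, a receptor of osteopontin, rose from 4.400 ± 1.58 to 9.82 ± 1.597 FPKM, while ITGB3, a subunit of an osteopontin-binding integrin, fell from 30.3 ± 4.405 to 17.9 ± 2.08 FPKM. LRP8, a lipoprotein receptor that also binds clusterin, rose from 2.56 ± 0.445 to 4.62 ± 0.183 FPKM. EZR, a linker of membrane proteins to actin, rose from 217 ± 5.70 to 277 ± 30.0 FPKM. ITGA4, named after its values were seen, rose from 0.466 ± 0.114 to 0.937 ± 0.219 FPKM. The 5 calls became 2 without Control 1, 3 without Control 3, and 1 without Control 2, OX-LDL 1 or OX-LDL 3. Calls over all genes fell in those fits from 2991 to between 1161 and 1993.

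Of 27 paralogs of the markers, 7 reached the minimum level, and 3 of these rose, all of them relatives of IGFBP7. Over all genes tested, 7.91% rose. IGFBP3 went from 7.33 ± 1.41 to 19.2 ± 4.80 FPKM, IGFBP6 from 7.27 ± 0.174 to 13.0 ± 3.18 FPKM and IGFBP4 from 7.64 ± 1.203 to 12.04 ± 2.24 FPKM. TIMD4, a relative of HAVCR1, had 0.479 ± 0.0545 and 0.865 ± 0.215 FPKM and did not pass. The 3 calls became 1 without any 1 of the libraries other than OX-LDL 2, and calls over all genes fell there from 2991 to between 1161 and 1993. The median log2 fold change of the 7 was 0.69.

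**Figure D4:**
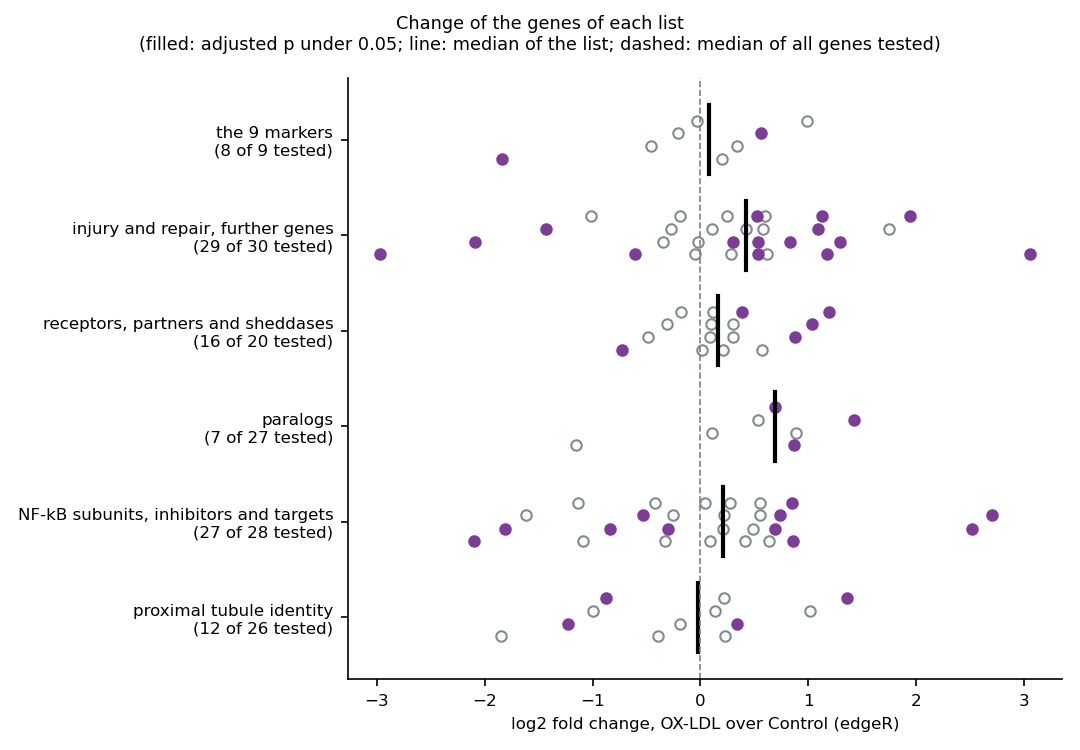
Log2 fold change in edgeR, OX-LDL over Control, of the genes tested in each list, 1 circle a gene, filled where the adjusted p was under 0.05. Black lines are list medians, and the dashed line is the median of all genes, -0.004. The further injury genes lie at a median of 0.42, and the 8 markers tested at 0.08. The markers and lists were chosen with earlier results of these data known.

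The label of the cells was checked against genes of the mature proximal tubule. Of 26 such genes 12 reached the minimum level, and LRP2, SLC5A12, SLC22A6, SLC22A8 and SLC7A9 never exceeded 12 counts, so these defining genes were not detected. Of the 12, 2 rose and 2 fell, with a median log2 fold change of -0.02, while 7.91% of all genes tested rose and 7.42% fell. CDH6, a cadherin of tubular precursors, rose from 10.7 ± 2.24 to 27.0 ± 1.67 FPKM. PAX8, a renal transcription factor, fell from 46.6 ± 12.9 to 19.4 ± 4.17 FPKM, and MIOX, an enzyme of inositol breakdown, from 13.5 ± 1.19 to 7.18 ± 1.68 FPKM. The 4 calls became 2 without Control 1 or 2 and 1 without OX-LDL 1 or 3. Calls over all genes fell in those fits from 2991 to between 1161 and 1796. In bulk RNA, fewer cells of a type and less RNA per cell cannot be told apart.

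Markers of other cell types were detected in part. Of the genes listed, 3 of 7 leukocyte, 4 of 5 endothelial and 2 of 6 fibroblast genes never exceeded 12 counts. Nor did 3 of 5 distal nephron and 2 of 3 podocyte genes, while the remaining genes exceeded that limit in at least 1 library. PTPRC, LYZ and ADGRE1 of leukocytes, VWF, CDH5, KDR and EMCN of endothelium, PDGFRA and DCN of fibroblasts, UMOD, SLC12A1 and AQP2 of the distal nephron and NPHS1 of podocytes never exceeded 12 counts. The summed level of the 7 leukocyte genes ran from 3.17 to 7.81 FPKM over the Control libraries and from 9.20 to 14.2 FPKM over the OX-LDL libraries. Most of it was CD68, a lysosomal protein, at 5.21 ± 2.39 and 10.8 ± 2.45 FPKM, which did not pass. The 6 fibroblast genes summed to 10.1 to 12.01 FPKM over the Control libraries and 8.77 to 14.1 FPKM over the others, most of it LUM, a matrix proteoglycan, at 10.2 ± 1.10 and 11.4 ± 2.90 FPKM. Endothelial genes summed to at most 0.0957 FPKM, distal nephron genes to at most 0.134 FPKM and podocyte genes to at most 0.733 FPKM. None of the 5 genes of these lists that were tested was called by edgeR's quasi-likelihood test, and 2 of them had an unadjusted p under 0.05, whereas DESeq2 called 1, CD68. The part of this difference in the marker results was not tested.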

How the data were processed

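RNA-seq of 3 Control and 3 OX-LDL libraries of HK-2 cells was analysed from a table of 58825 genes. The authors' processing notes name cutadapt 1.9, HISAT2 2.0.4, StringTie 1.3.4d, edgeR, DESeq2 and GRCh38, with no roles or order. The deposited FPKM values are scaled to transcript length and library size. The deposited estimated counts were whole numbers, taken as about 4 counts per read pair, and a count of 0 was listed at 0.0001 FPKM. Per the labels, the library protocol marks strand, and the counting setting is not given in the sources used here.

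Counts were fitted in edgeR 4.0.16 (R 4.3.3) with TMM factors and the quasi-likelihood test, two-sided, for genes that averaged 0.1 FPKM or more, with Benjamini-Hochberg adjustment over all genes tested. Standard errors were the log2 fold change over the square root of F. No covariates were used. The alternatives were DESeq2 1.42.0, limma 3.58.1 on log2(FPKM + a pseudocount of 0.1, 0.01 or 1), other scaling factors, counts divided by 4, other minimum levels, a replicate block, a fold limit and leaving out each library. The tests were tried on simulated data. No 2 libraries of the same group agreed within sampling noise (chi-square per gene 14.3 to 24.6). With 3 against 3 libraries, the smallest two-sided p that a permutation test of 1 gene allows is 0.1.

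The markers and the lists were chosen with earlier results of these data known, so their call rates are not independent of these data. The text names all 9 markers, at most 4 genes of each list by smallest p, further called genes where it says that they were named after their values were seen, and for each tested marker the 2 genes with the most similar values over the 6 libraries. A few genes that this rule or the lists would name are not reported here. The lists hold further injury and repair genes, receptors, partners and sheddases, paralogs, NF-kB genes, proximal tubule genes, proliferation genes and genes of other cell types. Upstream sequences came from RefSeq on GRCh38.p14. Gene coordinates of 81.2% of 58552 shared identifiers, and of 7 of the 9 markers, equalled those of GENCODE 29.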

Additional observations from a re-analysis of the deposited data

How the results depend on the processing

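No pairing by replicate number was seen (correlations of same-numbered deviations -0.093, -0.032 and -0.005, and of the others -0.075 to 0.109). Whether libraries of the same number shared a culture or batch was not tested. With a replicate block the genes called went from 2991 to 1636, the markers called from 2 to 1, as CLU was lost at a log2 fold change of 0.56 and an adjusted p of 0.0507 in edgeR, the paralogs from 3 to 1 and the NF-kB genes from 11 to 4. DESeq2 called 4430 genes in place of 2991. It called 5 paralogs and 7 proximal tubule genes, in place of 3 and 4, and added HAVCR1 (0.34) and, with no minimum, PROM1 (1.93). With a minimum of 1 FPKM, 3152 of 12259 genes were called, HAVCR1 among them (0.34), and SOX9 was not tested. With no minimum, 2321 of 31096 genes were called, 7 NF-kB genes among them. A fold above 2 or below 0.5 together with an unadjusted p under 0.05, in place of the adjusted p, left 1 marker.

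With 1 library left out, 1161 to 2943 genes were called, 0 to 3 markers, 1 to 6 receptors and partners, 1 to 4 paralogs, 3 to 8 NF-kB genes, 1 to 5 proximal tubule genes and 2 to 6 proliferation genes. No marker was called in edgeR without Control 2, OX-LDL 1 or OX-LDL 3, where 1161, 1262 and 1163 of all 19510 genes were called. The log2 fold change ran from 0.50 to 0.63 for CLU, from -2.11 to -1.59 for SOX9, from -0.492 to -0.0584 for SOX4 and from -0.187 to 0.0732 for SPP1, which changed sign without Control 1 (0.03) and OX-LDL 1 (0.0732). The cause was not tested. Other scaling factors and pseudocounts changed no call among the 9 markers. The parts of counting error and of spread between libraries in the width of the intervals were not separated.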

Other observations

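Of 8 proliferation genes tested, 4 rose and 4 did not pass in edgeR's quasi-likelihood test, with a median log2 fold change of 0.35. By the sign of the log2 fold change alone, 6 of the 8 were higher and 2 lower. Among all genes tested, 9688 were higher and 9822 lower. Over all genes tested, 7.91% rose. The mitotic cyclins CCNA2 and CCNB1 rose from 32.7 ± 3.20 to 68.1 ± 13.3 FPKM and from 55.3 ± 2.93 to 102 ± 17.5 FPKM (SD, n = 3). MKI67 rose from 54.9 ± 3.01 to 70.4 ± 4.16 FPKM and TOP2A, which untangles DNA, from 88.3 ± 4.77 to 114 ± 11.5 FPKM. The 4 calls became 2 without Control 2, OX-LDL 1 or OX-LDL 3, and calls over all genes fell there from 2991 to between 1161 and 1262.

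For the markers, the genes with the most similar pattern over the 6 libraries were sought among 12253 genes that averaged 1 FPKM or more (12252 for IGFBP7). Likeness was the root mean square difference of centred log2(FPKM + 0.1), and the 6 libraries include the difference between the groups. PERP, a desmosome protein, was nearest to CLU at 0.0243, and PPIAP31 followed at 0.0319; it is a pseudogene, and its counts are uncertain. TMEM123 was nearest to HAVCR1 at 0.0287, followed by FZD1, a Wnt receptor, at 0.0418. RAB3IL1 and LRRC61 were nearest to SOX9, at 0.135 and 0.174. LCN2 had no gene as near, with C7orf25 at 0.336 and PFN2 at 0.360. The nearest genes were SALL1 and BACE2 for SPP1 (0.0487 and 0.0510), LIMK2 and STK26 for VCAM1 (0.0795 and 0.0874) and LINC02889 and BTG2 for IGFBP7 (0.0415 and 0.0469).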
